A study of Mus musculus with 10 samples.

Results

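The alkaline phosphatase genes *Alpi*, *Akp3*, *Alppl2* and *Alpl* were followed in RNA-seq libraries of mouse proximal intestine, in mice with and without the metal transporter *Zip14* (*Slc39a14*). They were taken by symbol, 4 genes of the 35275 Ensembl gene IDs counted, and all 4 passed the filter on low counts. The 5 WT and 5 KO libraries each came from 1 mouse. The sample labels give only WT or KO as genotype, proximal intestine as the tissue, and an age between 8 and 10 weeks. The study's methods describe the sequenced mice as whole-body *Zip14*-/- mice (WB-KO) with WT controls of the same strain from heterozygous matings, while the series carries a title about enterocyte-specific deletion; the counts cannot tell these apart. A whole-body knockout lacks the transporter in every tissue and not in the gut alone. The mice ate a commercial diet from weaning, and the sex of each is not in the labels. RNA came from whole segments of the gut wall, so that muscle, immune and nerve cells are included, and fewer cells of a type cannot be told apart from less RNA per cell.

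Alkaline phosphatases are zinc-containing enzymes that are held on the outer cell surface by a glycosylphosphatidylinositol (GPI) anchor and remove phosphate groups at alkaline pH. In the gut they sit on the brush border of enterocytes, where they dephosphorylate bacterial lipopolysaccharide and nucleotides and are known for a part in fat absorption and in tolerance of gut bacteria. In mice, *Alpi* (also *Akp6*) encodes the global intestinal enzyme made along the small intestine, *Akp3* the duodenal enzyme, *Alppl2* (also *Akp5*) the embryonic enzyme, and *Alpl* the tissue-nonspecific enzyme of bone, liver and kidney.

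The 3 tissue-specific genes lie side by side on chromosome 1 of GRCm38. By GENCODE M21, *Alppl2* (ENSMUSG00000026246) spans 87086694 to 87089928 and *Alpi* (ENSMUSG00000079440) 87098002 to 87101606, both on the minus strand, and *Akp3* (ENSMUSG00000036500) spans 87124973 to 87127912 on the plus strand. *Alpl* (ENSMUSG00000028766) lies apart from them on chromosome 4 (137741733 to 137796384, minus strand). The coding sequences of *Alpi* and *Akp3* were identical at 81.8% of aligned bases, those of *Alpi* and *Alppl2* at 81.7%, and those of *Akp3* and *Alppl2* at 78.4%, whereas *Alpl* shared between 65.1% and 65.8% with the others. No stretch of 100 bases of the *Alpi* transcript occurred in *Akp3*, and 35 of its 2288 stretches of 50 bases did (1.53%). How the authors treated reads that match several genes is not given in the sources used here, so reads of the shared stretches are uncertain. *Alppl2* overlaps *Gm29371* on the other strand, and without known strand handling their reads cannot be told apart.

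The bases just before the start of the 3 clustered genes are shown because they show how far these neighbours, whose levels differed widely, share their proximal promoters. Each is the stretch of 150 bases before the RefSeq start (GRCm38.p6), written 5′ to 3′ on the gene's strand. Capitals mark the 2 longest runs that all 3 promoters share, both of 13 bases, and the letters CAAAGTC, a core of the motif bound by HNF4, a transcription factor of the gut epithelium. The stretches are chr1:87101607-87101756 (minus strand) for *Alpi*, chr1:87124804-87124953 (plus strand) for *Akp3* and chr1:87089929-87090078 (minus strand) for *Alppl2*.
Alpi: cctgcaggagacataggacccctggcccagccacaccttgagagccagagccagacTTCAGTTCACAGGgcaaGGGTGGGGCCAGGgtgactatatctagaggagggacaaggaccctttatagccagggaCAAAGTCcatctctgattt
Akp3: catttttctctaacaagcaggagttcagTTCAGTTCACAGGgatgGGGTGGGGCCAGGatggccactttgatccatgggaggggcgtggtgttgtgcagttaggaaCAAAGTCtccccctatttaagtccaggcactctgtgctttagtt
Alppl2: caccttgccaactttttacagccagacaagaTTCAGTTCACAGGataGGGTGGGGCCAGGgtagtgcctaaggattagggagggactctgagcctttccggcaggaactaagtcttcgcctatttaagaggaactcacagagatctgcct
The first shared run, TTCAGTTCACAGG, started 94 bases before the start of *Alpi*, 122 before that of *Akp3* and 119 before that of *Alppl2*, and was found on either strand in 9 of the 32851 RefSeq promoters searched (0.027%, 250 bases each). The second, GGGTGGGGCCAGG, started 77, 105 and 103 bases before these starts and was in 15 of those promoters (0.046%). CAAAGTC stood 19 bases before the start of *Alpi* and 44 before that of *Akp3*, was not in the window of *Alppl2*, and was in 3.84% of all promoters. TTTAT, a core of the CDX motif, was in the *Alpi* window only among the 3, and in 37.3% of all promoters. The letters AGATAA, of the kind that GATA factors bind, were in none of the 3 windows and in 9.99% of all promoters. GGGTGGG, of the kind that KLF factors bind, was in all 3 windows, where it is the start of the second shared run, and in 15.8% of all promoters. On the other strand it also stood 159 bases before the start of *Alpi* and 193 before that of *Alppl2*, outside the printed stretches. A match of letters is a description and not a binding site.

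The libraries held between 16729787 and 20819678 counts in WT and between 17118742 and 19414828 in KO mice. *Slc39a14* itself fell from 260.4 ± 62.6 to 102 ± 32.9 TMM CPM (reads of a gene relative to all reads of its library, scaled by the TMM method; SD, n = 5 each), an edgeR log2 fold change of -1.35 (adjusted p = 0.00184). Markers of gut position went against the common label of the tissue. The summed level of 5 ileal genes (*Fabp6*, *Slc10a2*, *Fgf15*, *Slc51a*, *Slc51b*) was between 199 and 237 TMM CPM in WT and between 3245 and 10499 in KO libraries, and all 5 were called higher in KO. *Fgf15* was at 0 counts in 2 WT libraries. The summed level of 8 genes of the proximal intestine was between 8426 and 15306 TMM CPM in WT and between 92.0 and 1341 in KO libraries, none of them was at 0, and 4 of the 7 tested were called lower. The quasi-likelihood test of edgeR called 29.9% of the 15610 genes tested at an adjusted p below 0.05, with 16.0% higher and 13.9% lower in KO. Higher genes made up 53.5% of the calls with TMM and 69.4% with scaling by library size only, which moved the median log2 fold change of all genes by 0.12. Genotype, gut position and any other difference between the 2 sets of mice cannot be told apart in this design. Y-linked genes (*Ddx3y*, *Eif2s3y*, *Kdm5d* and *Uty*) summed to at most 1 count in any library, so that no library of either genotype showed the expression of a male mouse.

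*Alpi* was by far the most abundant alkaline phosphatase gene in every library of both genotypes. Per kilobase of exon it averaged 588 ± 249.2 TMM CPM in WT and 180.5 ± 52.7 in KO mice (SD, n = 5 each). *Akp3* averaged 29.1 ± 43.6 and 2.09 ± 2.36 on the same scale, *Alppl2* 1.32 ± 0.296 and 1.29 ± 0.702, and *Alpl* 0.481 ± 0.0907 and 0.521 ± 0.269. In WT mice the order *Alpi*, *Akp3*, *Alppl2*, *Alpl* held in 5 of 5 libraries. In KO mice *Akp3* was above *Alppl2* in 3 of 5 libraries and above *Alpl* in 4 of 5, and *Alppl2* was above *Alpl* in 4 of 5, so that the places below *Alpi* were not separated there. By mean TMM CPM, not divided by length, *Alpi* ranked 69th of 35275 gene IDs in WT and 315th in KO libraries.

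**Figure D1:**
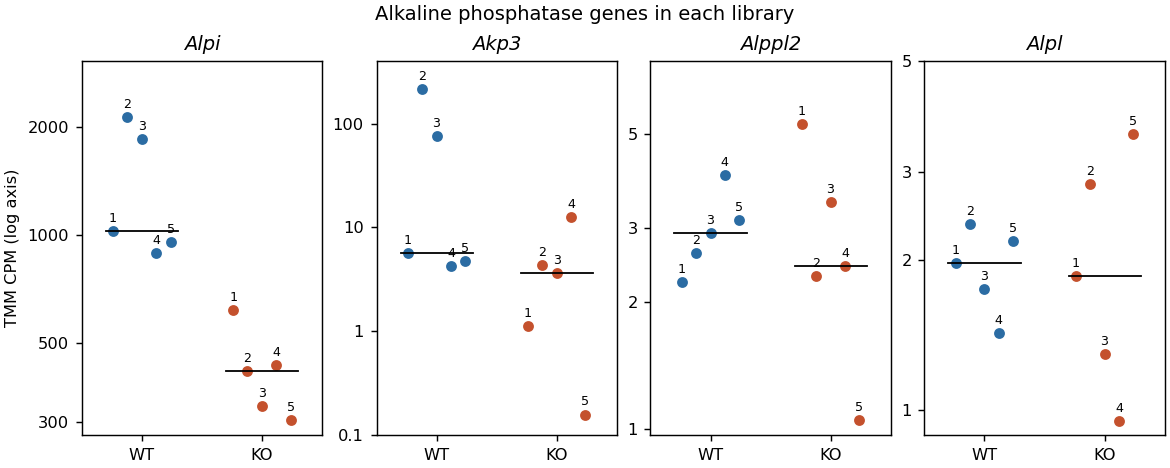
TMM CPM (log axis, a different range in each panel) of the 4 alkaline phosphatase genes in WT (blue) and KO (orange) libraries; each point is 1 mouse, with its replicate number, and the bar is the median. *Alpi* does not overlap between the genotypes, *Akp3* is high only in WT replicates 2 and 3 (215 and 75.5), and *Alppl2* and *Alpl* overlap.

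Of the 4 genes, *Alpi* and *Akp3* were called lower in KO mice, where the background over all genes tested was 13.9%, and none was called higher. Only for *Alpi* were all KO libraries below all WT libraries, which held for 10.8% of the genes tested. The call of *Alpi* held with any 1 mouse left out, and that of *Akp3* did not.

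*Alpi*, the global intestinal enzyme, was counted at 1024, 2139, 1861, 889 and 954 TMM CPM in WT replicates 1 to 5 and at 619, 418, 333.5, 433 and 304 in KO replicates 1 to 5. The groups did not overlap, WT replicates 2 and 3 were the highest, and the highest KO library, replicate 1, stayed below the lowest WT library. The means were 1374 ± 582 in WT and 422 ± 123 in KO (SD, n = 5 each), and *Alpi* was 3.26-fold lower in KO (log2 fold change -1.70, standard error 0.30, adjusted p = 0.00254 by edgeR). An exact permutation test of the log2 CPM gave p = 0.00794, the smallest that 5 mice against 5 allow (two-sided). Without WT replicates 2 and 3 together the log2 fold change of *Alpi* was -1.19 (adjusted p = 0.0167 by edgeR), and with single mice left out it lay between -1.89 and -1.49.

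General epithelial genes were compared beside *Alpi*. The epithelial list (*Epcam*, *Vil1*, *Krt8*, *Krt18*, *Krt19*, *Cdh1*, *Cldn7*) summed to between 9278 and 11241 TMM CPM in WT and between 12146 and 16908 in KO libraries, none was at 0, and 5 of 7 were called higher and 0 lower. *Vil1*, a structural protein of the brush border, was at 3086 ± 96.5 and 2200 ± 740 TMM CPM and was not called (log2 fold change -0.49, adjusted p = 0.105 by edgeR). Relative to the summed counts of these genes, *Alpi* was lower by 2.09 on the log2 scale (-2.09, exact permutation test, p = 0.00794). Smooth muscle markers were also higher in KO, 10 of 10 of them called, with a sum between 1220 and 2182 TMM CPM in WT and between 3276 and 9979 in KO libraries. With the smooth muscle score in the model, the log2 fold change of *Alpi* was -1.19 (adjusted p = 0.380), and with the epithelial score it was -0.19 (adjusted p = 0.857 by edgeR). Neither score overlapped between the genotypes, so that these fits rest on the variation within each genotype.

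*Akp3*, the duodenal enzyme, was counted at 5.71, 215, 75.5, 4.29 and 4.76 TMM CPM in WT replicates 1 to 5 and at 1.13, 4.35, 3.62, 12.7 and 0.157 in KO replicates 1 to 5. It was high in WT replicates 2 and 3 and low in the other libraries of both genotypes, and the groups overlapped: KO replicate 4 was above 3 WT libraries. The means were 61.1 ± 91.5 in WT and 4.39 ± 4.95 in KO (SD, n = 5 each). In edgeR *Akp3* passed the threshold narrowly, with a log2 fold change of -3.78 (SE 1.28, adjusted p = 0.0450), and by the exact permutation test of the log2 CPM it did not (p = 0.0952, two-sided). Without WT replicate 2 the log2 fold change was -2.36 (adjusted p = 0.153), without WT replicate 3 it was -3.70 (adjusted p = 0.0782), and without both it was -0.17 (adjusted p = 0.916 by edgeR). The call was also lost when KO replicate 1, 2, 3 or 5 was left out, with an adjusted p between 0.0719 and 0.0879. KO replicate 5 held only 3 *Akp3* reads, against 3377 in WT replicate 2.

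**Figure D2:**
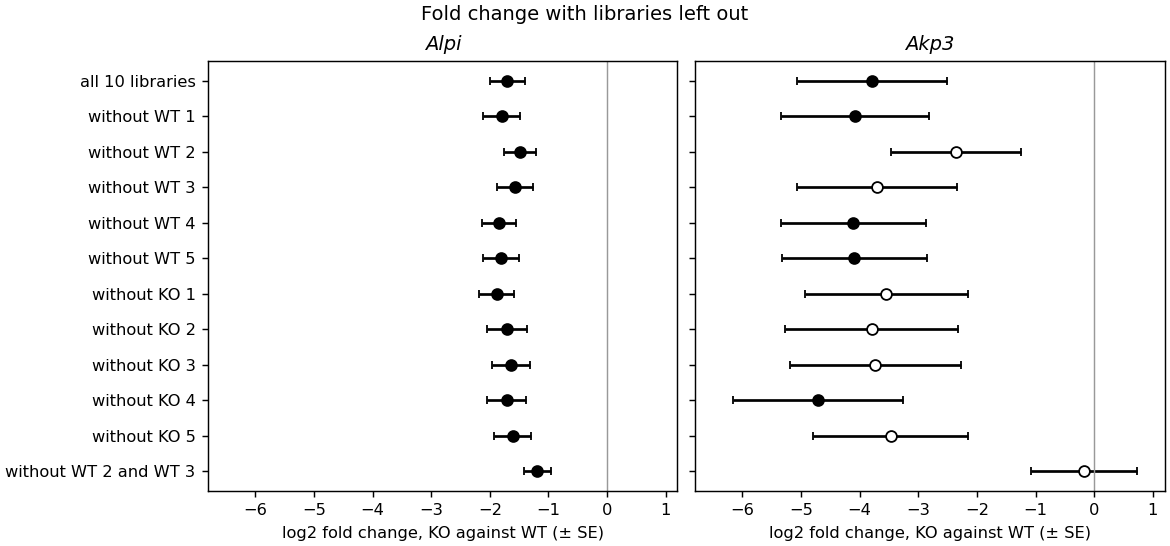
edgeR log2 fold change (KO against WT, ± standard error) of *Alpi* and *Akp3* with all 10 libraries, with each library left out in turn, and without WT replicates 2 and 3 together; filled points have an adjusted p under 0.05 and open points do not. *Alpi* stays between -1.89 and -1.19 and filled throughout, while *Akp3* moves from -3.78 to -0.17 once WT replicates 2 and 3 are both left out.

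*Akp3* and *Alpi* were also compared within each library, where scaling has no part. *Akp3* made up 9.15% of the reads of *Akp3* and *Alpi* together in WT replicate 2 (95% Wilson interval 8.86 to 9.45) and 3.90% in WT replicate 3 (3.69 to 4.11). In WT replicates 1, 4 and 5 its share was 0.554%, 0.480% and 0.497%. In KO replicates 1 to 5 the share was 0.182%, 1.03%, 1.07%, 2.84% and 0.0517%, with Wilson intervals of 2.52 to 3.20 for KO replicate 4 and 0.0176 to 0.152 for KO replicate 5. The shares of the genotypes overlapped, with a mean of 2.92% ± 3.78 in WT and 1.04% ± 1.11 in KO (SD, n = 5 each; exact permutation test, p = 0.373), and the median was higher in KO (1.03%) than in WT (0.554%). The intervals cover counting error only, and the libraries of both genotypes differed among themselves by far more. Over all 4 genes and per kilobase, *Alpi* took between 89.8% and 99.1% of the family in WT and between 96.2% and 98.9% in KO libraries.

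**Figure D3:**
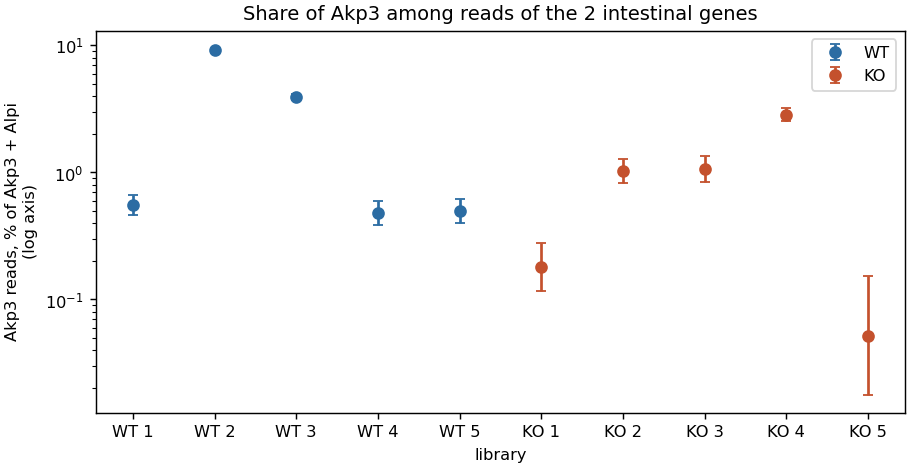
*Akp3* reads as a percent of *Akp3* plus *Alpi* reads (log axis) in each library, with 95% Wilson intervals; WT in blue, KO in orange. WT replicates 2 and 3 stand at 9.15% and 3.90%, and the KO libraries run from 0.0517% to 2.84% across the level of the other WT libraries.

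Some regional genes were also highest in WT replicates 2 and 3, and others were not. These libraries had 14.7 and 6.24 TMM CPM of *Pdx1*, a transcription factor of the duodenum and pancreas, against between 0.168 and 1.142 in the other WT and between 0.105 and 0.572 in KO libraries. *Onecut2*, a transcription factor of the proximal gut, was at 124 and 91.6 TMM CPM in these libraries, between 18.1 and 68.1 in the other WT and between 0.282 and 1.52 in KO libraries. *Apoa4*, an apolipoprotein of fat absorption, was at 9063 and 8501, between 3390 and 5648, and between 18.8 and 493 TMM CPM in the same order. *Gata4*, which marks the proximal small intestine, did not set them apart (201 and 200.1 against 160.3 to 217 TMM CPM). Nor did *Fabp1*, a fatty acid binding protein (2492 and 3063 against 1190 to 2652 TMM CPM), and *Lct*, lactase, was lowest in them among WT libraries (3363 and 3366 against 3533 to 3783 TMM CPM). Exocrine pancreas genes summed to 0.255 TMM CPM in WT replicate 2, 4.32 in WT replicate 3, between 0.415 and 3.59 in the other WT libraries and between 0.451 and 14.0 in KO libraries. *Pdx1* and *Onecut2* were chosen for this comparison after their values were seen, and the part of gut position in the *Akp3* and *Alpi* levels was not tested.

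**Figure D4:**
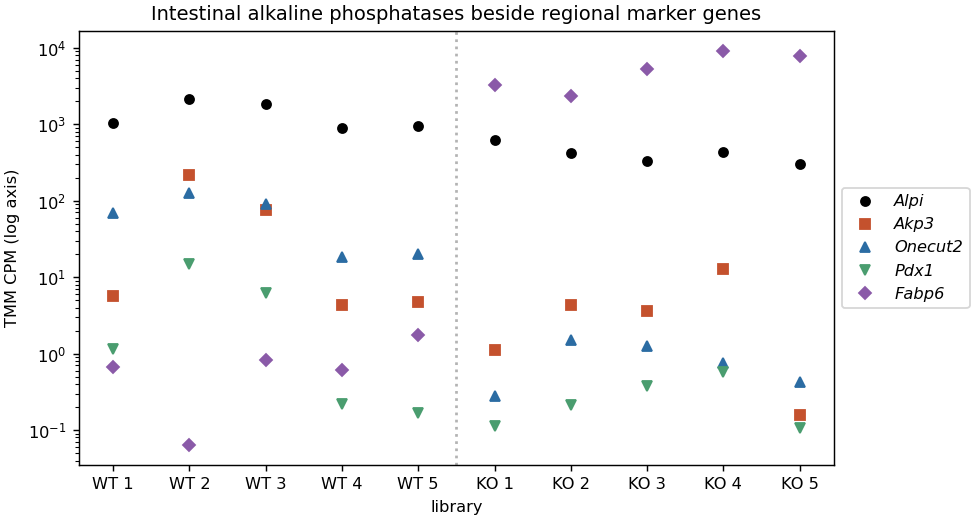
TMM CPM (log axis) of *Alpi*, *Akp3*, the duodenal and proximal genes *Pdx1* and *Onecut2*, and the ileal gene *Fabp6* in each library. *Akp3* and *Pdx1* are highest in WT replicates 2 and 3, and *Fabp6* is between 2307 and 9058 in KO libraries and at most 1.74 in WT libraries.

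*Alppl2*, the embryonic enzyme, was counted at 2.23, 2.62, 2.92, 4.01 and 3.14 TMM CPM in WT replicates 1 to 5 and at 5.30, 2.31, 3.45, 2.43 and 1.05 in KO replicates 1 to 5. KO replicates held both the highest and the lowest value, and the groups overlapped. Its log2 fold change was -0.04 (standard error 0.36, 95% interval -0.74 to 0.66, adjusted p = 0.943 by edgeR), and the sign turned with scaling by library size only (0.070). The KO libraries spread more widely (2.91 ± 1.58 TMM CPM) than the WT libraries (2.98 ± 0.668, SD, n = 5 each). The interval does not exclude a log2 fold change as low as -0.74 or as high as 0.66.

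*Alpl*, the tissue-nonspecific enzyme, was counted at 1.97, 2.36, 1.75, 1.43 and 2.19 TMM CPM in WT replicates 1 to 5 and at 1.86, 2.83, 1.295, 0.953 and 3.57 in KO replicates 1 to 5. Both the 2 lowest and the 2 highest libraries were KO, and the KO libraries spread about the WT range. The log2 fold change was 0.12 (standard error 0.34, 95% interval -0.56 to 0.79, adjusted p = 0.820 by edgeR). *Alpl* is also made by neutrophils and endothelial cells. Neutrophil markers summed to between 5.86 and 7.64 TMM CPM in WT and between 2.89 and 8.53 in KO libraries, 7 of 9 were at 0 in some library, and 0 of the 2 tested were called, while 3 of 7 endothelial markers were called lower.

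All 4 genes together summed to 1440 ± 667 TMM CPM in WT and 431 ± 124 in KO mice (SD, n = 5 each). No KO library reached the lowest WT library, and the sum was 3.17-fold lower in KO (log2 difference -1.67, exact permutation test, p = 0.00794, two-sided). Within the family, the per-kilobase share of *Alppl2* was between 0.114% and 0.462% in WT and between 0.353% and 1.05% in KO libraries. The share of *Alpl* was between 0.0520% and 0.131% in WT and between 0.123% and 0.672% in KO libraries. *Alpi* makes up most of the denominator of these shares, so that they restate its fall and are no separate result.

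The genes whose levels ran most closely with each member were sought across all genes tested, by Pearson's r over the 10 libraries after the mean of each genotype was taken off. The libraries share depth and tissue makeup, so r is a description only. For *Alpi* these were *Cdr2* (r = 0.971), *Osbpl6* (0.935), *Paqr7* (0.933), *Ephx2* (0.931) and *Ormdl3* (0.928). *Ephx2*, an epoxide hydrolase of lipid metabolism, was at 693 and 724 TMM CPM in WT replicates 2 and 3, between 259.6 and 447 in the other WT and between 26.7 and 91.9 in KO libraries. For *Akp3* they were *Pdk4* (0.950), *Mettl18* (0.939), *B430010I23Rik* (0.929), *Kcnd1* (0.928) and *Caprin2* (0.923). *Pdk4*, a kinase that turns off pyruvate dehydrogenase and is known to rise in fasting, was at 62.9 and 32.1 TMM CPM in WT replicates 2 and 3 and between 3.04 and 16.0 in the other 8 libraries. *Alppl2* ran closest with *Zhx3* (0.963) and *Alpl* with *Dele1* (0.970).

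Fixed lists of genes were described next. Only those of secretory zinc transporters and of the GPI anchor concern steps that an alkaline phosphatase needs to reach the cell surface. The others hold transcription factors, other enzymes, phosphate transporters and genes of endotoxin recognition. Of the 90 genes tested over the 7 lists, 11 were called higher (12.2%) and 28 lower (31.1%) in KO, beside 16.0% and 13.9% of all genes tested. These shares are over all lists and do not describe delivery to the surface. Zinc is loaded into alkaline phosphatases in the secretory pathway by the zinc transporters ZnT5 and ZnT6, which work as a pair, and by ZnT7. *Slc30a5* (ZnT5) fell from 128 ± 14.5 to 77.2 ± 14.8 TMM CPM (log2 fold change -0.73, adjusted p = 0.00353 by edgeR). *Slc30a6* (ZnT6) fell from 26.8 ± 3.45 to 19.5 ± 2.44 TMM CPM (-0.46, adjusted p = 0.0176), and for both all KO libraries were below all WT libraries (SD, n = 5 each). *Slc30a7* (ZnT7) was at 55.6 ± 5.88 and 46.4 ± 6.93 TMM CPM and was not called (-0.26, adjusted p = 0.112). Over the whole list of 6 zinc transporters of the secretory pathway, 4 were called lower and 0 higher by edgeR, with a median log2 fold change of -0.42 beside 0.03 over all genes tested. *Slc39a7*, *Slc39a9* and *Slc39a13* in this list belong to the family of *Slc39a14*, so that the count is not one of zinc loading alone. One lower call, *Slc39a7*, was at a low level, 1.65 ± 0.468 and 0.636 ± 0.272 TMM CPM (-1.36, adjusted p = 0.0152 by edgeR). *Slc39a13* was not called (0.34, adjusted p = 0.129 by edgeR). The call of *Slc39a9*, a zinc transporter of the Golgi (log2 fold change -0.38, adjusted p = 0.0400), was lost in 7 of the 10 fits with 1 mouse left out.

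Of 26 genes for the synthesis and attachment of the GPI anchor, 1 was called higher and 3 lower, with a median log2 fold change of -0.06. Without KO replicate 5 the list held 1 lower call, and without any other single mouse it held 2 or 3. The higher gene was *Pigx* (0.56, adjusted p = 0.00890), and the lower genes were *Pigg* (-0.52, adjusted p = 0.0272), *Pigo* (-0.43, adjusted p = 0.00978) and *Dpm1* (-0.41, adjusted p = 0.0343 by edgeR), all of which act in building the anchor and were chosen for naming after their values were seen. The most abundant, *Pigt*, a subunit of the transamidase that attaches the anchor, was at 112 ± 6.45 and 123 ± 15.5 TMM CPM and was not called (0.14, adjusted p = 0.308 by edgeR). *Pigq* (-0.13, adjusted p = 0.349) and *Pigs* (-0.21, adjusted p = 0.153 by edgeR) were not called either.

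Transcription factors of the gut epithelium moved in both directions, with 2 called higher and 5 lower of 14 and a median of -0.08. *Cdx1* and *Cdx2*, which set intestinal identity, rose with log2 fold changes of 0.92 (adjusted p = 2.43e-04) and 0.78 (adjusted p = 0.00273 by edgeR). *Klf4*, a factor of differentiated epithelium known to activate the *ALPI* promoter, was at 258 ± 32.7 and 309 ± 59.9 TMM CPM and was not called (0.26, adjusted p = 0.215), nor was *Hnf4a* (0.27, adjusted p = 0.234). *Hnf4g*, its paralogue in enterocytes, fell from 508 ± 57.6 to 214 ± 82.9 TMM CPM (-1.25, adjusted p = 0.00318 by edgeR). *Gata4* fell from 189 ± 24.4 to 16.1 ± 24.8 TMM CPM (-3.56, adjusted p = 0.0177 by edgeR). KO replicate 1 was at 59.4 against at most 13.8 in the other KO libraries, and without it the log2 fold change of *Gata4* was -5.17 (adjusted p = 8.04e-04 by edgeR).

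Other brush border hydrolases did not move as one. Of 16, 7 were called lower and 3 higher, with a median log2 fold change of -0.80. *Sis*, sucrase-isomaltase, fell from 4595 ± 1006 to 1261 ± 603 TMM CPM (-1.87, adjusted p = 0.00192 by edgeR), a change close in size to that of *Alpi*. *Anpep*, aminopeptidase N, was at 6854 ± 333 and 6346 ± 1894 TMM CPM and was not called (-0.11, adjusted p = 0.711). *Naaladl1*, a peptidase that is strong in the ileum, rose from 1077 ± 669 to 4119 ± 965 TMM CPM (1.94, adjusted p = 0.00547 by edgeR).

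Among 14 other enzymes that cut phosphate from nucleotides and related substrates, 6 were called lower and 1 higher. The higher call was *Enpp4* (named after its values were seen), and the list held 0 higher calls when WT replicate 1, 2, 3 or 4 or KO replicate 2 or 3 was left out. *Enpp3*, an ecto-enzyme that cleaves extracellular nucleotides, fell from 895 ± 294 to 21.7 ± 26.2 TMM CPM (-5.37, adjusted p = 0.00290 by edgeR). Leaving out KO replicate 2 moved the log2 fold change of *Enpp3* to -6.18 (edgeR adjusted p = 0.00329). *Entpd5*, a nucleoside diphosphatase of the endoplasmic reticulum, fell from 325 ± 102 to 175.6 ± 19.6 TMM CPM (-0.89, adjusted p = 0.00860), while *Acp5*, an acid phosphatase, was not called (-0.07, adjusted p = 0.704). Of the 6 phosphate and pyrophosphate transporters tested, 1 was called higher and 2 lower. *Slc34a2*, the sodium-phosphate carrier of the brush border, rose from 76.7 ± 65.7 to 597 ± 198 TMM CPM (2.96, adjusted p = 0.00745 by edgeR), and *Xpr1*, a phosphate exporter, fell from 114 ± 6.27 to 74.2 ± 14.3 (-0.62, adjusted p = 0.00517). *Ank*, a pyrophosphate exporter, fell from 91.7 ± 16.6 to 70.5 ± 7.78 TMM CPM (-0.38, adjusted p = 0.0476 by edgeR), a call that held in 3 of the 10 fits with 1 mouse left out. Of the 8 genes of endotoxin recognition tested, 3 were called higher and 1 lower. The lower gene was *Ticam1*, an adaptor of TLR4 (-0.27, adjusted p = 0.0348 by edgeR), whose call held in 3 of the 10 fits with 1 mouse left out. The adaptors *Myd88* (0.19, adjusted p = 0.173) and *Tirap* (-0.12, adjusted p = 0.651) were not called. The 3 higher genes were *Cd14*, *Tlr4* and *Lbp*, which bind or sense lipopolysaccharide and were chosen for naming after their values were seen, with log2 fold changes of 1.35, 1.19 and 0.86 (adjusted p = 2.86e-04, 0.0221 and 0.0307 by edgeR). With single mice left out, the call of *Cd14* held in 10 of 10 fits, that of *Tlr4* in 8 and that of *Lbp* in 4.

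**Figure D5:**
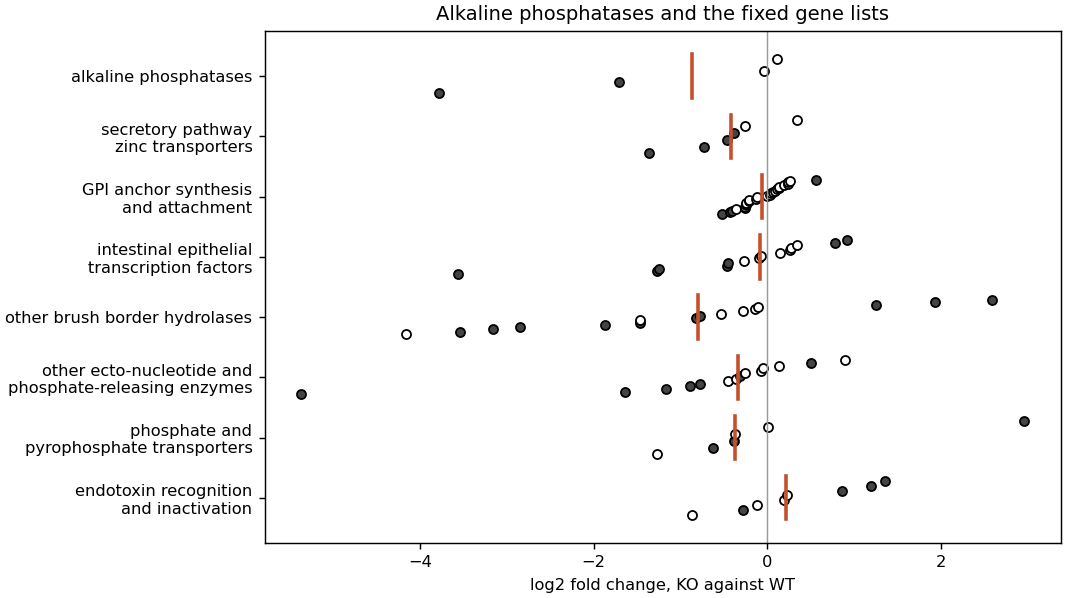
edgeR log2 fold change (KO against WT) of the alkaline phosphatases and of each tested gene of the fixed lists; each point is a gene, filled where the adjusted p is under 0.05, and the orange bar is the median of each list. *Alpi* (-1.70) and *Akp3* (-3.78) lie among the lower brush border and nucleotide enzymes, and the medians of the other lists run from -0.80 for brush border hydrolases to 0.21 for endotoxin recognition.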

How the data were processed

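The authors deposited raw read counts per Ensembl gene ID for each of 10 libraries, 1 mouse each. Per the labels, total RNA was made into SMARTer mRNA-Seq libraries, which were sequenced on an Illumina NovaSeq. The submitters' processing notes name FastQC 0.11.9, Trimmomatic, HISAT2 2.0.4, SAMtools 1.3.1 and DESeq2 1.14.1 with GRCm38 and mm10; for the read counter, annotation and strand handling, nothing is given in the sources used. Names, exon lengths and positions came from GENCODE M21 (GRCm38), which named 34490 of 35275 IDs, and promoters from RefSeq (GRCm38.p6), which held all 4 genes.

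R 4.3.3 with edgeR 4.0.16 was used: filterByExpr (minimum count 10, minimum total 15), TMM, the quasi-likelihood test and Benjamini-Hochberg adjustment over 15610 genes (threshold 0.05). Single values per library were compared by two-sided exact permutation tests over 252 splits; log2 CPM had a prior count of 2. P-values set the difference between the genotypes against the spread between mice. Intervals of a fold change are 95% from the standard error by a normal approximation. They are narrower than the quasi-likelihood test would give with so few mice. A gene at 0 counts may stand for up to 3. Scripts were tested on simulated data. Members and lists were chosen with earlier results of these data known. Named genes were the members, *Slc39a14*, the 3 most abundant genes of each list, *Slc30a5*, *Slc30a6*, *Slc30a7*, *Klf4*, *Cdx1*, *Cdx2*, *Gata4* and *Hnf4a*, at most the 2 most abundant genes of each marker list with *Fabp6* and *Fabp1*, and the 5 genes most like each member; others were chosen after their values were seen. Alternatives were RLE or library-size scaling, other filters, DESeq2 1.42.0, a robust fit, a replicate block, marker scores as covariates, a ratio to epithelial counts, per-kilobase sums and left-out mice.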

Additional observations from a re-analysis of the deposited data

Results flagged for a closer look

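Among 64 groups of 5 libraries examined for 1 distant value, 2 held one, where chance gives about 1 in 20 groups. *Slc39a14* in KO replicate 1 was at 160.1 TMM CPM, against between 78.5 and 93.8 in the other KO libraries. *Gata4* in the same library was at 59.4 TMM CPM, against between 0.572 and 13.8 in the other KO libraries. KO replicate 1 was also the KO library with the highest *Alpi* level, at 619 TMM CPM; leaving this library out gave *Alpi* a log2 fold change of -1.89 (adjusted p = 0.00139 by edgeR).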

How the results depend on the processing

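*Alpi* and the summed level kept their direction and their side of the threshold under the alternatives run, except that *Alpi* fell below the threshold at -1.19 with the smooth muscle score and at -0.19 with the epithelial score as a covariate. *Akp3* was past the threshold with DESeq2 (-3.83, adjusted p = 0.0118), RLE, library size only and other filters. It was not with a robust fit (-3.78, adjusted p = 0.0671), the smooth muscle score (-4.38), the Y-linked score (-0.94, a score that rests on at most 1 count a library), the ratio to epithelial counts (-3.54), or without WT replicates 2 and 3 (-0.17, an alternative chosen after seeing the data), and it turned to 5.51 with the epithelial score. The share of *Akp3* turned to 0.53 percentage points higher in KO without WT replicates 2 and 3, and lay between -2.49 and -0.32 with single mice left out. *Alppl2* turned to 0.070 with library size only, 0.0065 with the smooth muscle and 0.037 with the epithelial score; *Alpl* turned to -0.67 with the epithelial score and -0.47 as a ratio, and moved to 1.33 with the smooth muscle score (adjusted p = 0.315), and the ratio gave *Alppl2* -0.64. With single mice left out, the log2 fold change was between -4.71 and -2.36 for *Akp3*, -0.37 and 0.17 for *Alppl2*, and -0.16 and 0.30 for *Alpl*; genes called higher numbered 1634 to 2944 in all and 7 to 11 in the lists. *Acp5* turned to 0.056 and *Tirap* to 0.0084 with library size only, and with single mice left out *Anpep* lay between -0.27 and 0.0070, *Acp5* between -0.16 and 0.00071 and *Tirap* between -0.22 and 0.0056. The calls of *Slc39a9*, *Ank* and *Ticam1* were each lost under 9 to 10 alternatives, and calls were gained for *Klf4* without KO replicate 4 (0.37, adjusted p = 0.0334) and for *Myd88* with library size only (0.31, adjusted p = 0.0484). Higher calls in the endotoxin list numbered 1 without WT replicate 1 and 2 under the block, in place of 3, and those in the list of other phosphate-releasing enzymes 0 under the block and with no filter, in place of 1.

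The replicate number as a block gave *Alpi* -1.65 (adjusted p = 0.00946), *Akp3* -3.29 (adjusted p = 0.0780) and *Alpl* -0.0028, and moved *Gata4* to -4.98 and *Enpp3* to -6.48. Same-numbered libraries correlated between -0.167 and 0.177 in their deviations from the group means, and 1 of 5 correlated best with its own number. No pairing by number was seen in these values, and whether same-numbered libraries share a batch or litter was not tested. The causes of these shifts were not tested.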

Other observations

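Without WT replicates 2 and 3 together, edgeR called 1429 genes, 628 of them higher and 801 lower in KO, in place of 4660. This fit held 3 WT mice, no other pair was left out, and 3362, 3207 and 3354 genes were called without WT replicate 1, 2 or 3 alone, so that the part of these libraries and that of the smaller number of mice cannot be told apart. KO replicate 2 held 1172 TMM CPM of *Car1*, a carbonic anhydrase of the colon, against at most 11.3 in any other library, and 70.8 TMM CPM of *Aqp8*, a water channel of the colon, which was also at 49.9 TMM CPM in WT replicate 3 and 17.7 in WT replicate 2. Without KO replicate 2 the log2 fold change was -1.71 for *Alpi* (adjusted p = 0.00773 by edgeR) and -3.79 for *Akp3* (adjusted p = 0.0793 by edgeR). The pseudogene *Akp-ps1*, next to *Alppl2* on chromosome 1, held between 0 and 9 counts in each library.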
